A study of Mus musculus with 6 samples.

Results

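Genes of the cytosolic ribosome were taken from the platform annotation by symbol: Rpl or Rps followed by a digit, the stalk genes Rplp0, Rplp1 and Rplp2, and Rpsa. S6 kinase genes and symbols marked as pseudogenes were left out. This gave 63 genes of 19938 with a probe set of 1 symbol, and 61 of them passed the filter on dim signals. The other two, Rpl3l and Rpl39l, lay below it. Each gene was represented by its brightest probe set on average. Symbols such as Rpl3, Rpl11, Rps26 and Rps27 had no probe set of their own and were not analysed here as single genes.

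The cytosolic ribosome translates messenger RNA from the nuclear genome. Its small subunit decodes the message, and its large subunit joins amino acids and lets the new chain out through a tunnel. Messenger RNAs for ribosomal proteins belong to the terminal oligopyrimidine (TOP) class. They begin with a C and a run of pyrimidines, through which the kinase complex mTORC1 and the RNA-binding protein LARP1 set their translation, while MYC and RNA polymerase I activity are known to set the supply of ribosomes in growing cells. The processed retrocopies of ribosomal protein genes are numerous in the mouse genome.

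The data came from a bone marrow transfer study whose title concerns glycolysis in dendritic cells after ultraviolet (UV) irradiation of skin. Recipients were female C57BL/6J mice given 2000000 marrow cells from congenic B6.SJL-Ptprca donors, which carry the CD45.1 alloantigen. In the naive-donor group the donors were untreated, and in the UV-donor group their shaved dorsal skin had received at most 8 kJ/m2 of broadband UV. Mice were between 6 and 10 weeks old when irradiated, unless stated otherwise by the submitters. Both groups shared everything else: recipient marrow was grown for 5 days with GM-CSF and IL-4 at 10 ng/ml each, and the non-adherent cells were enriched on CD11c beads to over 95%. The share of donor-derived cells in these cultures is not given in the sources used here. Each group had 3 preparations on 1 array each, and nothing says that they came from separate recipients, so the spread and the p-values below may be technical.

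Several facts of the whole series bear on the values. The median log2 signal of an array was 7.16 to 7.23. Itgax, which encodes CD11c, had a signal of 13.77 ± 0.021 with naive donors and 13.73 ± 0.020 with UV donors (SD, n = 3). Of the 8 B cell and the 8 T and NK cell markers listed, 3 and 2 passed the dim filter. At an adjusted p under 0.05 (limma, Benjamini-Hochberg over all tested genes, two-sided), 24 of 13956 genes were called, or 0.172%. In RNA from mixed cells, fewer cells of a type and less RNA per cell cannot be told apart. The arrays were normalized to each other, so a change shared by all transcripts would not appear.

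The start of the transcript is shown because the pyrimidine run there defines the TOP class. The lines cover the 8 members in the RefSeq promoter table whose groups did not overlap, with every annotated start, and then Rpl14, which had the largest difference, and Rps6. Each line gives 15 bases before and the first 15 bases after the RefSeq start, build GRCm38.p6, in the direction of the gene. Capitals mark the run of at least 5 pyrimidines, opening with C, that lies over or nearest that start, as far as it falls within the line.
Rps21, upstream start, chr2:180257364-180257393, plus strand: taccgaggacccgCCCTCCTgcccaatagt
Rps21, downstream start, chr2:180257434-180257463, plus strand: ggacaagtgagcaggtaggcctcggtgcgg
Rps12, chr10:23787195-23787224, minus strand: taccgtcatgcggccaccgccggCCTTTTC
Rps18, chr17:33955651-33955680, minus strand: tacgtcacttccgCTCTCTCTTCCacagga
Rps25, chr9:44407699-44407728, plus strand: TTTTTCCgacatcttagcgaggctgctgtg
Rpl13, chr8:123102335-123102364, plus strand: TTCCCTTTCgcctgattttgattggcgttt
Rpl27, chr11:101442230-101442259, plus strand: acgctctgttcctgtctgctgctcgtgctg
Rpl27a, chr7:109519180-109519209, plus strand: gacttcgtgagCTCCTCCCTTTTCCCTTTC
Rpl37a, chr1:72711245-72711274, plus strand: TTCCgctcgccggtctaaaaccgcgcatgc
Rpl14, chr9:120571502-120571531, plus strand: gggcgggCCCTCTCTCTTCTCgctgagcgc
Rps6, chr4:86857353-86857382, minus strand: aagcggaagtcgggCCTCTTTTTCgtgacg
In Rps18, Rpl14, Rps6 and the upstream start of Rps21 the run covers the annotated start with a C at the first base. In Rpl27a it covers the start with a T there, and in Rps12 it lies further downstream. In Rps25, Rpl13 and Rpl37a it ends before the start and opens outside the line. Rpl27 and the downstream start of Rps21 have no such run in the line. Of 61 tested members, 49 were in the RefSeq promoter table, and 10 of them (20.4%) had a C at an annotated start followed by at least 4 more pyrimidines, against 2.96% of the 11112 tested genes in the table. A run of at least 6 pyrimidines opening with C lay within 20 bases of a start in 59.2% of these members and in 34.5% of the tested genes. RefSeq starts are often some bases away from the main start used in a cell, so a missing run says only that these letters are not in the window.

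Letters of the ETS family site, CCGGAAG on either strand, occurred between 250 bases before and 50 bases after a start in 36.7% of matched members and 17.8% of matched tested genes. The Sp1-type letters GGGCGG occurred in 61.2% and 64.9%, the YY1-type letters AAGATGG in 10.2% and 7.94%, and TATAAA in 12.2% and 9.13%, with both strands searched for each. These are matches of letters and not sites shown to be bound. The 120 bases before the upstream start of Rps21 and before the start of Rps25 are shown with CCGGAAG in capitals, since Rps21 had the smallest p of the members and Rps25 is one whose pyrimidine run ends before the start.
Rps21, chr2:180257259-180257378, plus strand: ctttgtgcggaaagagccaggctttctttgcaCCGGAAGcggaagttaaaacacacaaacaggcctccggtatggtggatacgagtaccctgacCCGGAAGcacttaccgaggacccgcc
Rps25, chr9:44407594-44407713, plus strand: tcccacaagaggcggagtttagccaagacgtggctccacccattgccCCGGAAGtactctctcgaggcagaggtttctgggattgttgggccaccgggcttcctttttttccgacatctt
Rps21 holds these letters at 2 places and Rps25 at 1. Of the other genes whose starts are shown above, Rps18 and Rps6 hold them at 1 place each in the same 120 bases. Rps12, Rpl13, Rpl27, Rpl27a, Rpl37a and Rpl14 hold them at 0 places there, so the printed pair is not typical of these genes.

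No ribosomal protein gene passed the test between UV-donor and naive-donor cells, and most values leaned slightly upward. Of the 61 tested members 0 were called, against 0.172% of all tested genes. Differences ran from -0.12 to 0.19 on the log2 scale, that is from 0.920-fold to 1.14-fold, and none was larger than 0.2 in size, a size that 8.05% of all tested genes exceeded. The median difference was 0.030, or 1.02-fold, against 0.0016 over all tested genes. Positive differences were found for 49 of 61 members (80.3%), against 50.6% of all genes. With array medians centred, these shares were 93.4% and 66.3%, and the medians 0.064 and 0.036.

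At an unadjusted p under 0.05, limma gave 2 members higher (9.6% of all tested genes) and 0 lower (5.49%). The higher count became 0 when naive-donor replicate 1 was dropped. Dropping UV-donor replicate 3 left 1, and dropping UV-donor replicate 1 gave 5. The lower count became 2 when naive-donor replicate 3 was dropped. The higher count was 12 with centred medians, 10 with an intensity trend and robust prior, 7 with array weights and 5 with the replicate block. Counts over all tested genes under these alternatives are not given here, so these member counts stand without a background. Under every alternative tried 0 members were called, and the smallest adjusted p of a member ran from 0.171 to 0.481. All 3 UV-donor arrays lay above all 3 naive-donor arrays for 13 members (21.3%), against 12.4% of all tested genes. The reverse was found for 0 members, against 9.37% of genes.

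The intervals describe the precision of the array values. Their spread may be technical, so they do not bound a difference between donor groups. The 95% interval lay inside -0.25 to 0.25 for 53 of 61 members, against 68.9% of all tested genes. The median standard error was 0.049 for members and 0.059 for all tested genes. The median SD within groups was 0.044 for members and 0.073 for all tested genes.

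**Figure D1:**
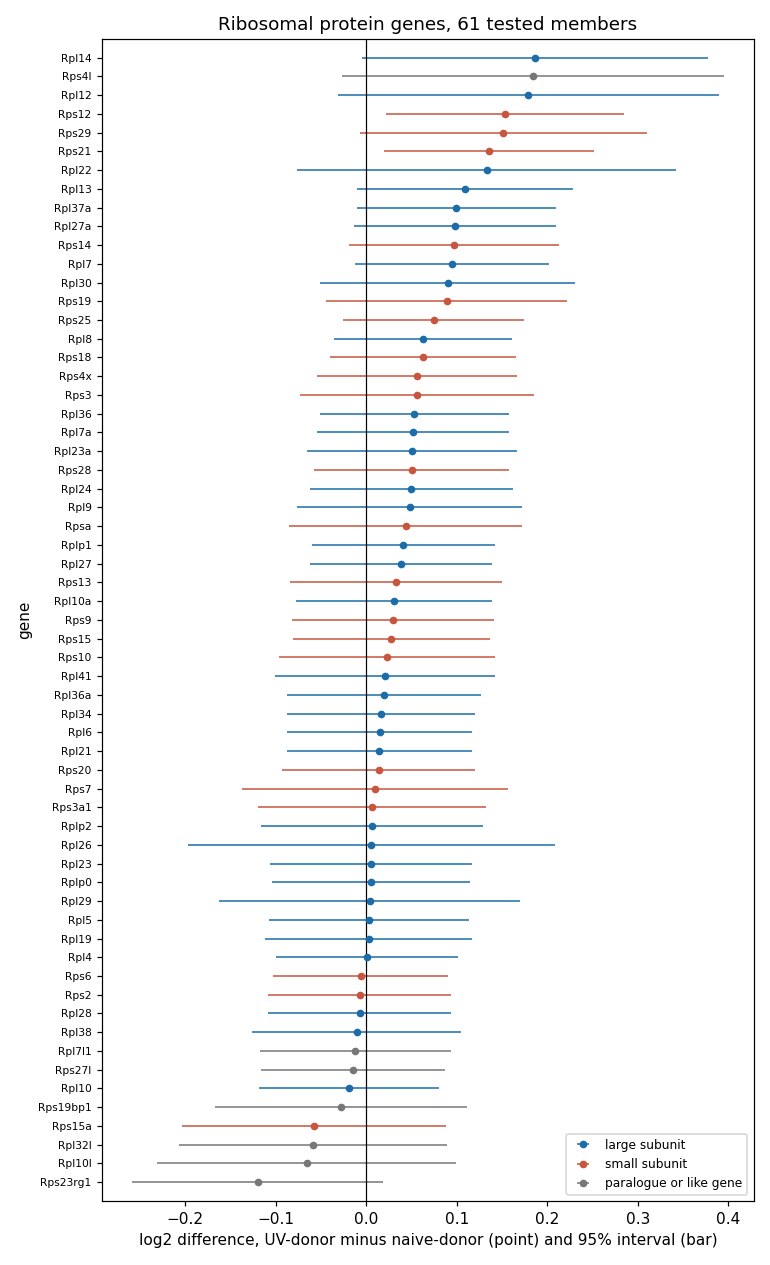
Log2 difference between UV-donor and naive-donor arrays (x axis) for each of the 61 tested genes (y axis), with its 95% interval as a bar, 3 arrays a group. Intervals of 59 genes include 0, all but those of Rps21 and Rps12.

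Among proteins of the small subunit, Rps21 and Rps12 had the smallest p-values. The log2 signal of Rps21 was 10.91, 10.96 and 10.89 on the naive-donor arrays and 11.00, 11.12 and 11.04 on the UV-donor arrays. Its groups did not overlap, and UV-donor replicate 1 was the UV-donor array nearest to the naive-donor group. The difference was 0.14 (SE 0.050, limma adjusted p = 0.266), or 1.10-fold.

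Rps12 encodes a protein at the beak of the subunit head. Its log2 signal was 12.34, 12.40 and 12.24 in naive-donor cells and 12.47, 12.54 and 12.42 in UV-donor cells. Every UV-donor array was above every naive-donor array, by little, and the difference was 0.15 (SE 0.057, limma adjusted p = 0.266). All 14 probe sets of Rps12 had positive differences, from 0.11 to 0.17. Several of them held identical values, so they are not 14 separate readings.

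Rps14 lines the platform where the message leaves the subunit, and Rps25 is known for its use by viral internal ribosome entry sites. Rps14 had a log2 signal of 12.54, 12.59 and 12.55 in the naive-donor group and 12.64, 12.73 and 12.61 in the UV-donor group. Rps25 had 12.95, 12.98 and 12.98 against 13.04, 13.07 and 13.03. In both genes the groups were apart on all arrays, with UV-donor replicate 2 highest. The differences were 0.097 (SE 0.051) and 0.075 (SE 0.044), with limma adjusted p-values of 0.398 and 0.449.

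Rps18 was the remaining small-subunit gene without overlap, at 0.063. Rps29, a zinc-binding protein of the small subunit named after its values were seen, differed by 0.15 (SE 0.069, limma adjusted p = 0.346). Its groups overlapped, since naive-donor replicate 3, at 12.17, was above UV-donor replicates 1 and 2, both at 12.15. Rps6, the S6 kinase substrate, had the narrowest spread of all members. Its log2 signal was 14.04, 14.05 and 14.06 in the naive-donor group and 14.04 on each UV-donor array. The difference was -0.0062 (95% interval -0.10 to 0.091), and its sign turned with centred medians, cyclic loess and quantile normalization. Rps19, the gene most often mutated in Diamond-Blackfan anaemia, differed by 0.089 (95% interval -0.044 to 0.22). Rpsa, known also as the laminin receptor, differed by 0.044 (-0.085 to 0.17).

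Over the 21 tested core proteins of the small subunit, the median difference was 0.044, with 18 positive. The core leaves out 7 paralogue, like and retroposed genes, of which Rpl32l and Rps23rg1 were added to the list after the files were seen. The lowest core value in the small subunit was that of Rps15a, at -0.058 (95% interval -0.20 to 0.088). It rests on 1 probe set with a mean log2 signal of 8.95. Brighter probe sets that list Rps15a together with pseudogenes went the other way, such as those at 0.085 (mean 12.00) and 0.077 (mean 12.03). The sign for Rps15a is therefore not settled.

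**Figure D2:**
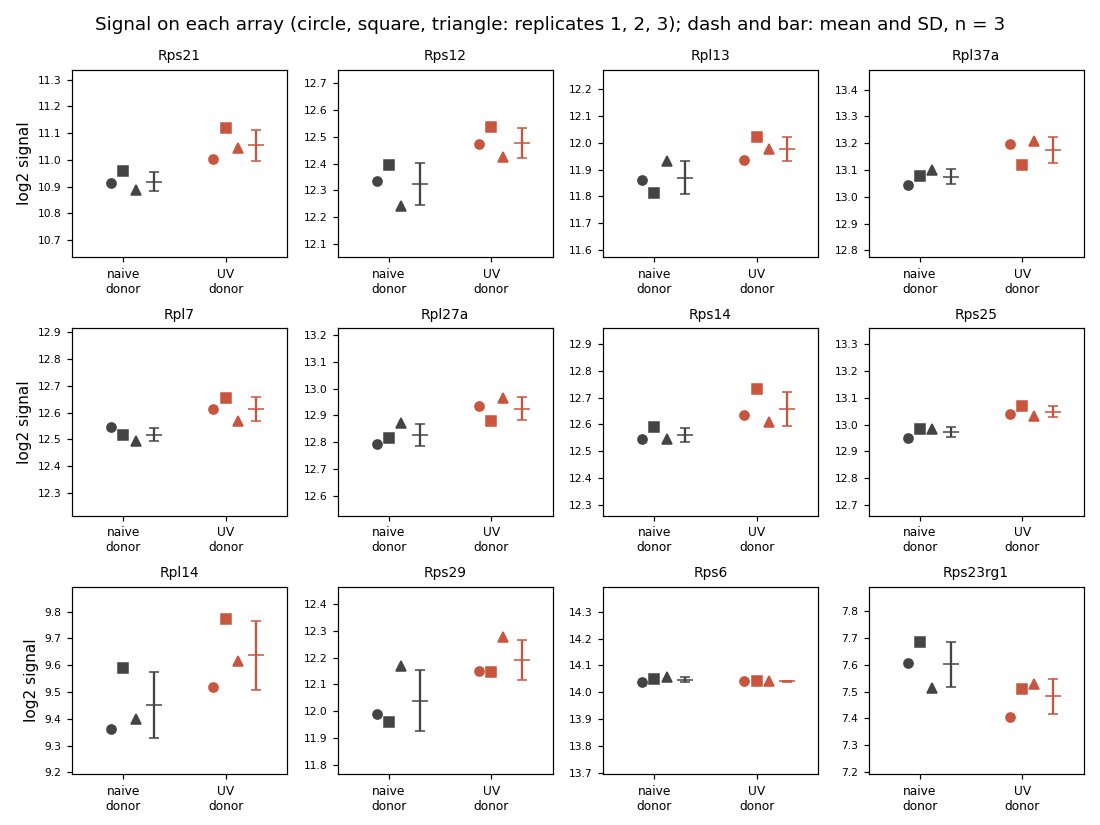
Log2 signal (y axis) of 12 ribosomal protein genes on each array by donor group (x axis), with mean and SD, n = 3; every panel spans 0.7 log2 units. Rps21, Rps12, Rpl13, Rpl37a, Rpl7, Rpl27a, Rps14 and Rps25 do not overlap between groups, while Rpl14, Rps29, Rps6 and Rps23rg1 do.

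In the large subunit, stalk genes apart, 4 genes of the naming rule had groups that did not overlap. Rpl37a, a zinc-binding protein of the subunit, had a log2 signal of 13.04, 13.08 and 13.10 in the naive-donor group and 13.20, 13.12 and 13.21 in the UV-donor group. Rpl27a had 12.79, 12.82 and 12.87 against 12.93, 12.88 and 12.96. In both genes UV-donor replicate 2 was the lowest of its group and only just above the naive-donor arrays, and the differences were 0.099 (SE 0.048) and 0.098 (SE 0.048).

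Rpl7 had a log2 signal of 12.54, 12.52 and 12.49 in naive-donor cells and 12.61, 12.66 and 12.57 in UV-donor cells. Rpl13 had 11.86, 11.81 and 11.93 against 11.93, 12.02 and 11.98. For Rpl13 the lowest UV-donor array and the highest naive-donor array were the same to the digits given, at 11.93, so its lack of overlap is marginal. The differences were 0.095 (SE 0.047) for Rpl7 and 0.11 (SE 0.052) for Rpl13. Limma adjusted p-values of these 4 genes ran from 0.369 to 0.381. Rpl8 (0.063), Rpl27 (0.038), Rpl30 (0.090) and the stalk gene Rplp1 (0.041) also had groups without overlap, and none passed the test. Of these Rpl8, Rpl27 and Rpl30, like Rps18 above, fall outside the naming rule and were picked with their values known.

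Rpl14, a large-subunit protein named after its values were seen, had the largest difference of all members. Its log2 signal was 9.36, 9.59 and 9.40 in the naive-donor group and 9.52, 9.77 and 9.62 in the UV-donor group. Replicate 2 was the highest of its group in both, and naive-donor replicate 2 was above UV-donor replicate 1. The difference was 0.19 (95% interval -0.0050 to 0.38, limma adjusted p = 0.342). This value rests on 1 probe set, with a mean log2 signal of 9.54. Rpl22 and Rpl30 also rest on 1 probe set each, with means of 9.58 and 8.30.

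Stalk proteins, which draw elongation factors to the ribosome, had differences of 0.0053 for Rplp0, 0.041 for Rplp1 and 0.0063 for Rplp2. The probe set of Rplp2, with a naive-donor mean of 6.97, lay close to the dim limit of 6.58. Rpl12, which anchors the stalk, had a log2 signal of 7.43, 7.48 and 7.78 in the naive-donor group and 7.67, 7.82 and 7.75 in the UV-donor group. The groups overlapped through naive-donor replicate 3, and the difference of 0.18 had a 95% interval of -0.031 to 0.39. This value rests on 1 dim probe set, with a mean of 7.66. Probe sets listing Rpl12 with Gm32899 were far brighter and near 0, such as those at -0.0077 and 0.0080 (mean 13.92 each). A dim one listing Rpl12 with Snora65 was at 0.15 (mean 7.60). Rpl5, a part of the 5S particle that can bind the p53 regulator MDM2, differed by 0.0033 (-0.11 to 0.11). Over the 33 tested core proteins of the large subunit, stalk included, the median was 0.031, with 30 positive.

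Of the 5 tested paralogue and like genes of the planned list, 1 had a positive difference, and their median was -0.014. With Rpl32l and Rps23rg1, added after the files were seen and both negative, it was 1 of 7 with a median of -0.028. Of the genes whose paralogue was also measured, Rpl7 differed by 0.095 and Rpl7l1, a Rpl7-like protein, by -0.012 (95% interval -0.12 to 0.093). Rpl10 differed by -0.019 and its autosomal retrogene Rpl10l by -0.066. Rps4x, on the X chromosome, differed by 0.057. Rps4l differed by 0.18 on its chosen probe set and by 0.052 on its other, both dim (means 7.82 and 7.69). The chosen probe set of Rps4l had the widest spread within groups of all members. The other two of widest spread were Rpl12 and Rpl22, whose difference was 0.13 (-0.076 to 0.34). Rps27l, an Rps27 paralogue known as a p53 target, differed by -0.014 (-0.12 to 0.087), and Rps19bp1, which binds Rps19 and is no ribosomal protein, by -0.028. With array medians centred, Rpl7l1 (0.023), Rps27l (0.020), Rps19bp1 (0.0069) and Rpl10 (0.015) were positive, so their signs are not settled, and 4 of the 7 genes were then positive. Whether the difference of a pair differed between its members was not tested. The lowest member value was that of Rps23rg1, a retroposed relative of Rps23, at -0.12 (-0.26 to 0.019). Without these 7 genes the median of the members was 0.036, with 48 of 54 positive.

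The upward lean was not shared by all UV-donor arrays. The median member signal, as a deviation from each gene's naive-donor mean, was -0.010, -0.0033 and 0.012 on naive-donor arrays 1, 2 and 3. It was -0.0023 on UV-donor array 1, 0.051 on UV-donor array 2 and 0.048 on UV-donor array 3. UV-donor array 1 thus lay within the naive-donor range, and the other two above it. On that array 27 of 61 members (44.3%) were above their naive-donor mean, against 46 on UV-donor array 2 and 47 on UV-donor array 3. Over all tested genes these shares were 48.5%, 52.9% and 52.3%. UV-donor array 1 was the lowest of its group for 37 members (60.7%), against 35.8% of all tested genes. Without it the median difference of the members was 0.043. Leaving out the arrays in turn gave medians from 0.024 to 0.048, the highest without naive-donor replicate 3.

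**Figure D3:**
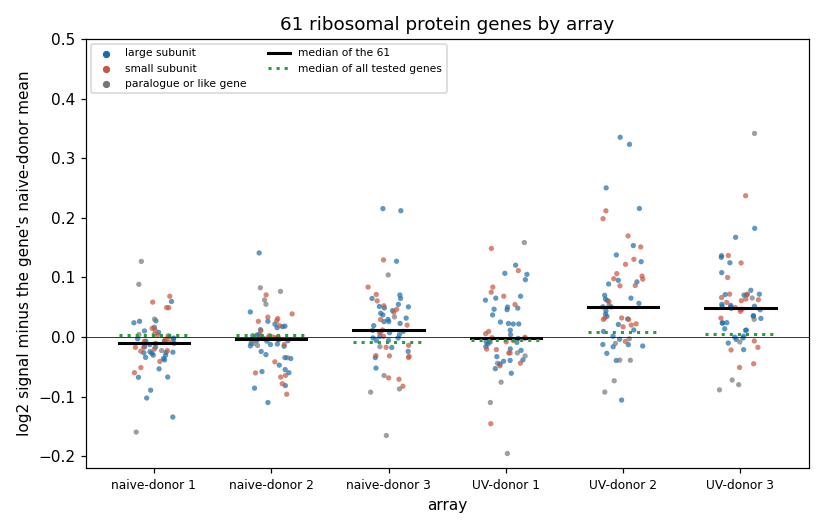
Log2 signal minus the gene's naive-donor mean (y axis) for the 61 tested genes on each array (x axis), a point per gene. Black lines mark medians of the 61 genes, at -0.0023 on UV-donor array 1 0.051 on array 2 and 0.048 on array 3 of that group; green dotted lines mark medians of all tested genes.

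The 63 members had 219 probe sets of 1 symbol in all, and 39 members had several. For 29 of the 39 every probe set had a positive difference, for 3 every one was negative, and for 7 the signs were mixed. All 9 probe sets of Rpl13 lay between 0.077 and 0.12, all 9 of Rpl27a between 0.082 and 0.15, all 13 of Rpl23a between 0.049 and 0.071, and all 4 of Rps29 between 0.15 and 0.17. The 6 probe sets of Rpl10 lay between -0.038 and -0.019. Rpl23 had a probe set at 0.0053 and another at -0.061. Some probe sets of Rps12, Rpl23a, Rpl27 and Rpl41 held values identical to those of another probe set of the same gene. Probe sets of 1 gene are therefore not independent, and these counts are not counts of separate readings. Whether they share probes or read retrocopies was not tested, so the gene behind each value is uncertain where copies are nearly identical.

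**Figure D4:**
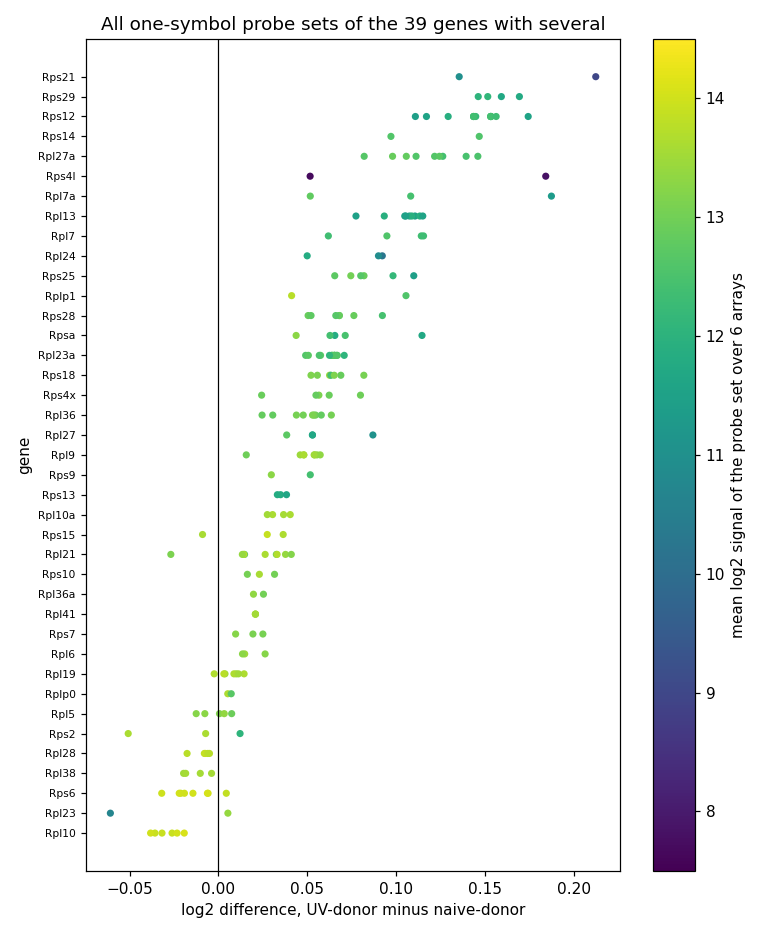
Log2 difference (x axis) of every 1-symbol probe set of the 39 genes with several (y axis), coloured by mean log2 signal of the probe set. Rps21, Rps29 and Rps12 head the order and Rpl10 ends it; the probe sets of Rps4l, Rpl7a, Rps21 and Rpl23 lie further apart than those of Rpl23a or Rpl13.

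The differences were smaller where the probe signal was near the top of the range. Of the tested members 27 had a mean log2 signal above 13, where the highest value of the whole table is 14.6. Their median difference was 0.020, with 22 positive. The 25 members between 10 and 13 had a median of 0.051, with 21 positive, and the 9 below 10 a median of 0.090, with 6 positive. Among the 219 probe sets, the median was 0.015 for the 90 above 13 and 0.071 for the 116 between 10 and 13, of which 111 were positive. Genes that are not members had medians of -0.021 above 13 (251 genes, 32.3% positive) and 0.0049 between 10 and 13 (4269 genes, 52.5% positive). The part of the signal range in the members' differences was not tested.

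Other genes of ribosome supply showed no call either. Of 77 tested mitochondrial ribosomal proteins, 60 had positive differences with a median of 0.034, close to that of the cytosolic members, and 7 upward and 0 downward differences had an unadjusted p under 0.05. Those 7 are a share of 9.09%, against 9.6% of all tested genes. Mrpl18 (0.21) and Mrpl11 (0.18) had the smallest p among them together with Mrpl54 (0.14). Their list median was highest on UV-donor array 3, at 0.070, against 0.0092 and 0.012 on UV-donor arrays 1 and 2. Fau, which encodes the small-subunit protein Rps30 as a fusion and lies outside the symbol rule, differed by 0.040 (SE 0.050).

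Other TOP messages were split 9 to 9 of 18 tested, with a median of 0.0045. Eif3h, a subunit of initiation factor 3, differed by 0.10 (SE 0.047), Eef1d, an exchange factor for elongation factor 1A, by 0.080, and the snoRNA host gene Gas5 by -0.19 (SE 0.11). For Gas5 the mean of its probe sets gave 0.036. Initiation factors were split 12 to 12 of 24, with Eif3i at 0.18, Eif2s2 at -0.12 and Eif4g2 at -0.11. Of 55 nucleolar assembly genes, 22 were positive (median -0.014). At an unadjusted limma p under 0.05, 2 of the 55 were higher, against 9.6% of all tested genes. They were the large-subunit assembly factor Pes1 (0.19) and fibrillarin, Fbl (0.12).

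Upstream genes did not pass the test. Myc itself had a difference of 0.27 (SE 0.068, limma adjusted p = 0.157), or 1.21-fold, with groups that did not overlap. Of 11 genes in the list of its family and partners 9 were positive, against 50.6% of all tested genes. That list mixes Myc with partner genes such as Mxd1 (0.17) and Mxi1 (0.063), so its count does not measure MYC activity. Of 15 genes of RNA polymerase I and its factors 8 were positive, with Znrd1, a polymerase subunit, at 0.24 and Taf1a, of its promoter factor, at 0.15 (limma adjusted p-values 0.151 and 0.174). Of 15 genes of mTORC1, LARP1 and S6 kinases 9 were positive (median 0.011) and none reached an unadjusted p under 0.05. Dedicated chaperones of ribosomal proteins numbered 9, with 6 positive, and Tsr2, the chaperone of Rps26, at 0.13. Of 13 genes of ribosome rescue and mRNA quality control 8 were positive.

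**Figure D5:**
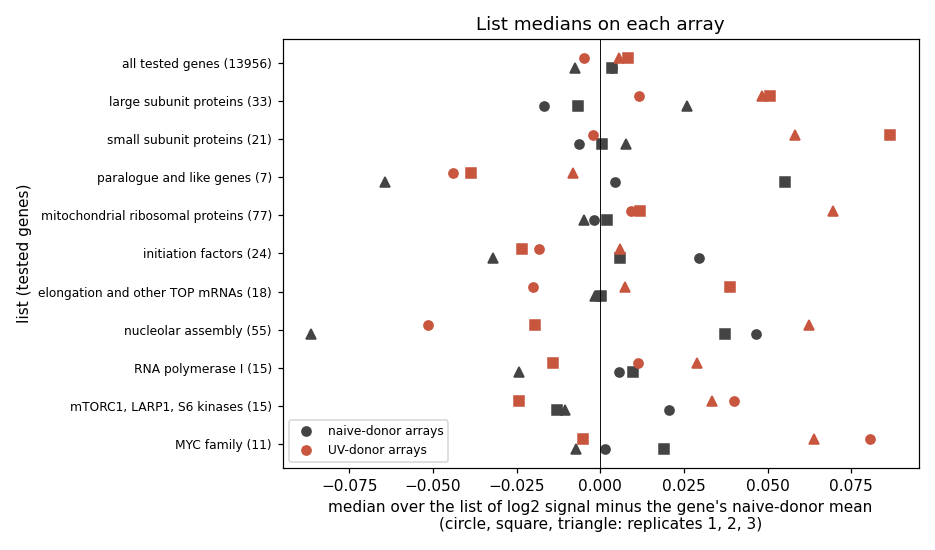
Median over each list of log2 signal minus the gene's naive-donor mean (x axis), 1 symbol per array; the number after each list name (y axis) is its tested genes. UV-donor arrays 2 and 3 stand right of the naive-donor arrays for both ribosomal subunits, and UV-donor array 1 does not.

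Genes of cell division and several marker lists had higher values on UV-donor arrays. All 24 tested proliferation genes had positive differences (median 0.52). At an unadjusted limma p under 0.05, 22 of the 24 were higher, against 9.6% of all tested genes, and 0 were called at the adjusted p. Their list median was 0.81 on UV-donor array 1, the array with the lowest ribosomal protein median of its group, 0.37 and 0.35 on UV-donor arrays 2 and 3, and -0.14 to 0.22 on naive-donor arrays. Of 12 neutrophil markers 10 were positive (median 0.37), and 2 were called. The mean log2 signal of the neutrophil list was 8.72 to 8.89 on naive-donor and 9.11 to 9.27 on UV-donor arrays. Of 9 macrophage markers 6 were positive (median 0.17), with a mean log2 signal of 10.17 to 10.22 and 10.40 to 10.43. Of 11 markers of dendritic cells grown with GM-CSF 9 were positive (median 0.10), with 11.75 to 11.83 and 11.92 to 12.01. All 5 tested progenitor markers were positive (median 0.19), with 7.66 to 7.83 and 8.18 to 8.25. Of 3 tested markers of eosinophils, basophils and mast cells 2 were positive (median 0.19), with 8.12 to 8.34 and 8.42 to 8.60. Of 4 markers of erythroid cells and platelets 3 were positive (median 0.14), with 7.90 to 8.06 and 8.13 to 8.18. In mean log2 signal, every UV-donor array was above every naive-donor array for these 6 marker lists. By that measure the ribosomal protein genes overlapped, at 12.12 on UV-donor array 1 and 12.13 on naive-donor array 3. By the median deviation from the naive-donor mean, some marker lists overlapped as well. Erythroid and platelet markers were at 0.029 on UV-donor array 1 and 0.035 on naive-donor array 2. Eosinophil, basophil and mast cell markers were at 0.065 on UV-donor array 3 and 0.090 on naive-donor array 1. B cell markers, 1 of 3 positive (median -0.0061), and T and NK cell markers, 1 of 2 (median -0.020), overlapped between groups in mean log2 signal. Whether the mix of cells or their division had a part in the small differences of the ribosomal protein genes was not tested.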

How the data were processed

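Marrow-derived cells from recipients of naive-donor or UV-donor marrow were measured on Affymetrix gene arrays, 3 a group. The authors deposited log2 values; the submitters' processing notes name oligo, RMA and limma, without versions. The genome build, summary level and probe content of the values are not given in the sources used here. Precision is limited by the 6 arrays.

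Each gene took its brightest probe set of 1 symbol. Dim genes, whose mean was under 6.58 (the 30th percentile), were not tested. The test was that of limma 3.58.1, run in R 4.3.3 (UV-donor minus naive-donor, two-sided, Benjamini-Hochberg over 13956 genes), tested on simulated data. An exact permutation test of 3 against 3 cannot go below 0.1. Members and lists were chosen with earlier results of these data known. Named members were up to 8 per direction with the smallest p among those whose groups do not overlap, listed paralogues, stalk, 5S and anaemia genes, Rpsa, Rps6 and the 3 of widest spread; of each other list, up to 3 with the smallest p. Rpl14, Rps29, Rps23rg1, Rps15a, Rpl23, Rpl30, Rpl8, Rps18, Rpl27 and Rpl32l were named after their values were seen. Sequences are RefSeq's, and 12 tested members had none in the table. Alternatives covered the dim filter, scaling, variance model, array weights, probe set rule, replicate block and leaving out each array.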

Additional observations from a re-analysis of the deposited data

How the results depend on the processing

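Of the members 0 were called under any alternative. At an unadjusted p under 0.05, 2 members were higher as reported. The count was 12 with array medians centred, 10 with an intensity trend and robust prior, 7 with array weights and 5 with the replicate block. Leaving out each array gave 0 to 5 members higher and 0 to 2 lower. Counts over all tested genes under these settings are not given here. Over all probe sets, an alternative chosen after seeing the data, 15 of 219 were higher, against 1801 of all 35556. Most of these 15 were probe sets of Rps12, several of them with identical values, and the rest belonged to Rps21, Rps14 and Rpl7. The 15 are therefore not separate readings, and their share cannot be weighed against that of all probe sets. The median difference of the members was 0.064 with centred medians, where that of all genes was 0.036, and 0.024 to 0.048 when each array was left out. The positive count ran from 41 to 57. Same-numbered arrays correlated at -0.13, -0.22 and 0.15 in their deviations. Differently numbered arrays were not compared, so these values do not decide whether the numbers pair the samples.

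Of 82 named genes followed, 15 changed sign somewhere; the cause was not tested. With centred medians Rpl7l1 was 0.023, Rpl10 0.015, Rps27l 0.020, Rps6 0.028 and Rps19bp1 0.0069. With cyclic loess Rpl10 was 0.0014, Rps6 0.014 and Pax5 0.0085. With quantile normalization Rpl10 was 0.0021, Rps6 0.018, Pax5 0.0047, Rpl5 -0.0051 and Rpl23 -0.0088. With the mean of probe sets Rpl5 was -0.0018, Rpl23 -0.028 and Gas5 0.036. With array weights Rpl7l1 was 0.0018. Leaving out each array gave Rpl7l1 -0.033 to 0.0032, Rpl36a -0.0054 to 0.041, Rps27l -0.026 to 0.0027 and Rplp0 -0.010 to 0.033. It gave Rplp2 -0.037 to 0.036, Rpl5 -0.026 to 0.031, Rps19bp1 -0.074 to 0.013 and Pdcd2l -0.020 to 0.099. It gave Cd3e -0.022 to 0.13, Rpl32l -0.10 to 0.0052 and Rpl23 -0.025 to 0.031.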

Other observations

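Another 239 probe sets listed a ribosomal protein gene together with other symbols and so named no single gene. Of these 205 (85.8%) had positive differences, with a median of 0.025 and a range of -0.062 to 0.30 on the log2 scale. In a limma fit of all 35556 probe sets, 5 of these 239 had a positive and 0 a negative difference with an unadjusted p under 0.05. Several of the 5 list Rps12 together with Nol11, and Rps12 is already among the members. None of the 239 passed the adjusted p. At that unadjusted p, 1801 of all 35556 probe sets were higher and 1708 lower. Of all probe sets 16175 were positive, with a median of -0.011.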
